A study of Mus musculus with 4 samples.

Results

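The 36 genes described here encode molecular chaperones and the proteins that work with them: heat shock factor 1, members of the Hsp70, Hsp110, Hsp90, Hsp40 and small heat shock families, the mitochondrial chaperonin, co-chaperones, and subunits of the cytosolic chaperonin TRiC. They were matched by symbol from a list that applies no threshold on measured values, although it was drawn up with earlier results of these data known, and all 36 were found among the 55536 annotated gene identifiers. The list is named for cytosolic and mitochondrial chaperones, but Hspa5, Hspa13 and Dnajc3 encode proteins of the endoplasmic reticulum (ER) and are called ER chaperones below. TRiC is represented by Tcp1, Cct2, Cct3, Cct4, Cct5, Cct7 and Cct8.

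The RNA came from the cytosolic fraction of bone marrow-derived macrophages, primary cells grown out of marrow, of C57BL/6J mice. All cells had been stimulated for 15 min with lipid A at 100 ng/ml, the part of bacterial lipopolysaccharide that Toll-like receptor 4 recognises, and no untreated or nuclear library was analysed here. Ribosome-depleted total RNA was sequenced in 4 libraries labelled as biological replicates, from 1 µg of RNA each. One donor record is given for the 4 libraries, and sex and age are listed as not collected. Whether the replicates were separate animals or cultures is not stated, and p-values here therefore describe the spread among these 4 samples, which could be technical.

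The libraries held 30088678, 47961117, 40282297 and 45771235 expected counts on annotated genes in replicates 1, 2, 3 and 4. TPM, a length-corrected abundance, was used to compare genes. The signal recognition particle RNA 7SL took 57.1% to 63.3% of TPM, and protein-coding genes took 30.1%, 23.1%, 22.9% and 32.4%, so a gene's TPM differs between libraries partly through that denominator. Libraries were therefore compared by normalized CPM, library-scaled counts with TMM factors. All 8 macrophage markers were present in every library, led by Lyz2 and Ctsd, and 17 of 18 markers of other cell types averaged below 1 TPM, with Epcam at 0 counts throughout. The exception was Pf4, with 938 TPM in replicate 1 against 157, 175 and 199 TPM in replicates 2, 3 and 4.

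Chaperones bind unfolded or partly folded polypeptides and release them in cycles driven by ATP. Hsp40 proteins deliver substrates to Hsp70 and stimulate its ATPase, Hsp110 proteins exchange its nucleotide, and Hsp90 takes over kinases, steroid receptors and other clients with the help of its co-chaperones. TRiC is a closed double ring that folds actin and tubulin. Some of these genes are transcribed at a steady level in most cells, and others are induced by heat and other proteotoxic stress through heat shock factor 1, which binds inverted repeats of GAA in their promoters.

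Those repeats, the heat shock elements, are shown first because they are the sequence through which the inducible genes are known to be controlled. Promoter windows of 300 bases, 250 before and 50 after the start, were available from RefSeq on build GRCm38.p6 for 28 of the 36 genes. Hsf1, Hspa8, Hspa9, Hspa13, Hsp90aa1, Hsp90ab1, Cct4 and St13 had no window and were not searched. A two-unit element was searched as GAANNTTC or TTCNNGAA, which read the same on both strands and can overlap each other. It was found in 14 of the 28 genes, against 17% of the 27025 genes in the table. Of the 8 genes listed as inducible below, 7 had a window and 6 of these held the element. The counts were 2 of 6 for the listed constitutive genes and 2 of 6 for TRiC genes. The windows below are 30 bases each, with the element in capitals. Those of Bag3 and Cdc37, which also held it, are not printed, and Hspa1a and Hspa1b follow further on. Hspb1 and Hsph1 each held a further element that is not printed.
Hspe1: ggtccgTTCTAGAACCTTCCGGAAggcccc
Hspd1: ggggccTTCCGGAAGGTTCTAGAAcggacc
Dnajb6: cagctccgaGAATCTTCCGGAAcgctagac
Hsph1: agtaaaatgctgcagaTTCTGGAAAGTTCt
Hspb1: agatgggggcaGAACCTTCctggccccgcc
Dnaja1: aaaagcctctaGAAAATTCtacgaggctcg
Fkbp4: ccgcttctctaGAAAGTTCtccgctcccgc
Dnajb4: ttcgttcgctgTTCTAGAAagtacagagac
Cct2: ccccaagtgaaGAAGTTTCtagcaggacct
Cct5: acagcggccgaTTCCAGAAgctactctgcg
The Hspe1 and Hspd1 lines are the same site, chr1:55088053-55088082, read from opposite strands, because these neighbouring genes are transcribed away from each other. It lies 89 to 72 bases before the RefSeq start of Hspe1 and inside an exon of the transcript Hspd1-202. The Dnajb6 window is chr5:29735843-29735872 on the plus strand. The Hsph1 window is chr5:149636287-149636316 on the minus strand, with its element 37 to 49 bases after the start. The Dnajb6 and Hsph1 windows also overlap annotated exons of their own genes. These 4 genes were the members with a three-unit element, GAANNTTCNNGAA or TTCNNGAANNTTC, which 0.662% of all genes held. A match describes letters in the window and is not evidence of binding.

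The stress-inducible Hsp70 genes Hspa1a and Hspa1b are near-identical neighbours, and their shared sequence limits what reads can separate. Their RefSeq windows agreed at 296 of 300 bases. The 250 bases before the start are shown for both, at chr17:34972157-34972406 and chr17:34959239-34959488, both on the minus strand of GRCm38.p6. Capitals mark the heat shock element in Hspa1a and, in Hspa1b, the bases that differ from Hspa1a.
Hspa1a: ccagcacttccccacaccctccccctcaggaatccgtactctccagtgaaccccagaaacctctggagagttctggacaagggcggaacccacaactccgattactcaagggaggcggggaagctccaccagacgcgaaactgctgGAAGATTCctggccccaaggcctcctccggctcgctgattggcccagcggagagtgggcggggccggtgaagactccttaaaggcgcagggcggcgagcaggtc
Hspa1b: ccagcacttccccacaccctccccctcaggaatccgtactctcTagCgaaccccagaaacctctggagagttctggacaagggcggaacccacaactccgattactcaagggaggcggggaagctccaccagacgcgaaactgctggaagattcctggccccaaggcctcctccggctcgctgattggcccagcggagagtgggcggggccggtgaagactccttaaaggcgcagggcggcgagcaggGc
The same element, in the same place, stood 104 to 97 bases before both starts. Of the words of 31 bases in the transcript Hspa1a-201, 63.8% also occurred in Hspa1b-201, and none occurred in Hspa8-201.

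A different element, through which ER stress is known to act, is shown for Hspa5 and Dnajc3, the ER chaperones with a promoter window. The ER stress response element was searched as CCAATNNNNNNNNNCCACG on both strands, and among the 28 genes it occurred in Hspa5 and Dnajc3 alone, against 0.137% of all genes. The 30-base windows are chr2:34772019-34772048 and chr14:118937821-118937850, both on the plus strand of GRCm38.p6, with the element in capitals.
Hspa5: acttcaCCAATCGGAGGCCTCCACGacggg
Dnajc3: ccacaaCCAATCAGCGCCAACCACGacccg
The Hspa5 window lies in an exon of the transcript Hspa5-201, and no annotated exon covers the Dnajc3 window.

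Of the 36 genes, 33 averaged at least 1 TPM over the 4 libraries. The 36 together made up 0.862%, 0.584%, 0.582% and 0.562% of the TPM of protein-coding genes in replicates 1, 2, 3 and 4. Hspa8, Hspa5 and Hsp90ab1 held 48.4% ± 0.333 of the summed chaperone TPM (SD, n = 4). This share varied little, between 47.9% and 48.7%, although the sum itself was 2592, 1349, 1330 and 1821 TPM.

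**Figure D1:**
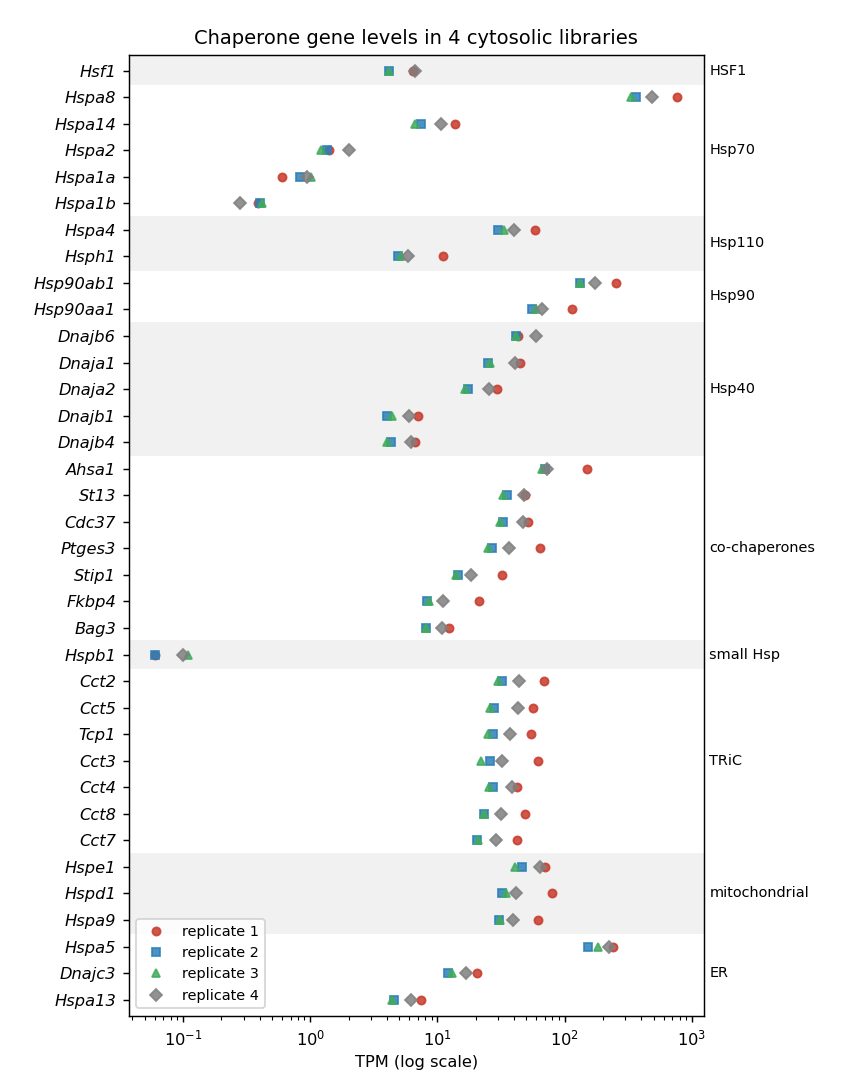
TPM on a log scale of each chaperone gene in each of the 4 libraries, grouped by family, with 1 symbol per replicate. Hspa8 averaged 487 TPM and Hspb1 averaged 0.0825 TPM, and replicate 1 is the highest library for most genes.

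Hsf1, the transcription factor that drives the heat shock response, had 6.38, 4.19, 4.16 and 6.62 TPM in replicates 1, 2, 3 and 4. Its normalized CPM was nearly the same in each library, at 16.1, 15.3, 15.8 and 16.5.

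Among the Hsp70 genes, Hspa8, the constitutive cytosolic Hsp70 (Hsc70), was the highest of all 36 genes. The gene (ENSMUSG00000015656.17) lies on the plus strand at chr9:40800984-40810087 of mm10. It had 769, 363, 329 and 488 TPM in replicates 1, 2, 3 and 4. It alone made up 27.0% ± 2.04 of the chaperone TPM (SD, n = 4). Hspa14, an Hsp70 that works at the ribosome, averaged 9.65 ± 3.27 TPM. Hspa2, best known for its role in sperm development, averaged 1.5 ± 0.359 TPM. The inducible copies were near the bottom of the list. Hspa1a had 0.60, 0.83, 1.02 and 0.95 TPM, from 79, 213, 215 and 172 expected counts. Hspa1b had 0.39, 0.40, 0.42 and 0.28 TPM, from 49, 96, 83 and 47 expected counts. Hspa1a exceeded Hspa1b in all 4 libraries, and the deposited intervals of their TPM were apart in replicates 2, 3 and 4 and overlapped in replicate 1, at 0.449 to 0.737 for Hspa1a and 0.266 to 0.516 for Hspa1b. Because the copies share most of their sequence, the split between them is uncertain and their sum, 0.99, 1.23, 1.44 and 1.23 TPM, is the safer value.

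The Hsp110 genes differed in level. Hspa4 averaged 40.3 ± 12.5 TPM and Hsph1, its heat-inducible relative, averaged 6.74 ± 2.87 TPM.

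Both cytosolic Hsp90 genes were abundant. Hsp90ab1, the constitutive form (ENSMUSG00000023944.14, chr17:45567775-45573271 of mm10, minus strand), had 253, 131, 133 and 174 TPM in replicates 1, 2, 3 and 4. Hsp90aa1, the stress-inducible form (ENSMUSG00000021270.13, chr12:110690605-110702728, minus strand), had 115, 55.8, 59.4 and 66.0 TPM. In each library the constitutive form was the higher one. Outside the 36 genes, the ER form Hsp90b1 averaged 148 ± 28.2 TPM and the mitochondrial form Trap1 averaged 13.0 ± 3.96 TPM.

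Of the Hsp40 genes, which encode J-domain partners of Hsp70, Dnajb6 was the highest, at 46.3 ± 8.63 TPM. It encodes a protein that holds back the aggregation of polyglutamine. Dnaja1 averaged 34 ± 10 TPM and Dnaja2 averaged 22.1 ± 6.33 TPM. The heat-inducible Dnajb1 and Dnajb4 were several-fold lower and close to each other, at 5.33 ± 1.39 and 5.28 ± 1.32 TPM.

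Co-chaperone levels ran over almost an order of magnitude. Ahsa1, the activator of the Hsp90 ATPase, had 151, 70.5, 66.6 and 73.2 TPM in replicates 1, 2, 3 and 4. St13, which binds Hsp70, Cdc37, which brings kinases to Hsp90, and Ptges3, the p23 protein that stabilises the closed form of Hsp90, averaged 41.1, 40.4 and 38.1 TPM, within 1 SD of each other. Stip1, the adaptor between Hsp70 and Hsp90, averaged 19.8 ± 8.47 TPM, and Fkbp4, an immunophilin bound to Hsp90, averaged 12.2 ± 6.02 TPM. Bag3, a stress-inducible nucleotide exchange factor of selective autophagy, was the lowest, at 9.87 ± 2.13 TPM.

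The small heat shock gene Hspb1 was at the limit of detection, with 2, 4, 6 and 5 expected counts. By counting error, a count of 0 would still allow a level of up to 3 counts. Replicate 1, with 2 counts, was below that floor. Its deposited TPM interval ran from 0.0207 to 0.236.

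In the mitochondrial group, Hspe1, the lid of the chaperonin, averaged 55.1 ± 14.0 TPM. Hspd1, its barrel subunit, averaged 46.7 ± 21.8 TPM, and Hspa9, the mitochondrial Hsp70, averaged 40.3 ± 14.5 TPM. Of the ER chaperones, Hspa5 (BiP), the ER Hsp70, had 240, 153, 183 and 222 TPM and ranked second of the 36. Dnajc3, a J-domain co-chaperone of BiP that also inhibits the kinase PERK, averaged 15.7 ± 3.74 TPM, and Hspa13, an Hsp70 without the substrate-binding domain, averaged 5.64 ± 1.44 TPM.

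The genes listed here as constitutive stood well above those listed as inducible in every library. Ahsa1, Hspe1, Hspd1, Dnaja1, Stip1 and Fkbp4 were placed in neither list. They averaged 90.4, 55.1, 46.7, 34, 19.8 and 12.2 TPM, so the contrast holds for the listed genes only. Hsf1, Hspa2, the ER chaperones and the TRiC subunits were also in neither list. Among these, Hsf1, Hspa2, Hspa13, Dnajc3 and Hspa5 averaged 5.34, 1.5, 5.64, 15.7 and 200 TPM. Over 10 constitutive genes (Hspa8, Hsp90ab1, Hspa4, Hspa14, Hspa9, Dnaja2, Dnajb6, Cdc37, Ptges3 and St13) the median level was 5.33 ± 0.37 on the log2(TPM + 1) scale. Over 8 inducible genes (Hspa1a, Hspa1b, Hsp90aa1, Hsph1, Hspb1, Dnajb1, Dnajb4 and Bag3) it was 2.62 ± 0.30, and over the 9634 protein-coding genes that averaged 1 TPM or more it was 3.14 ± 0.28 (SD, n = 4 libraries). The inducible median was below that of protein-coding genes, and the constitutive median above it, in all 4 libraries. Summed TPM of the constitutive genes was 1392, 714, 679 and 968, against 153, 78.4, 82.7 and 96.2 for the inducible genes in replicates 1, 2, 3 and 4. The ratio of these sums was 9.12 ± 0.751. Hsp90aa1 supplied 71.7% ± 2.68 of the inducible sum. Bag3, at 8.09 to 12.4 TPM, was lower than Hsp90aa1 in every library.

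Within families, ratios were taken inside each library, which removes library size. Exact two-sided sign-flip permutation over 4 libraries was used, for which 0.125 is the smallest p possible, so none of these 5 tests could pass 0.05 and adjustment cannot lower them. The log2 ratio of Hspa8 to the sum of Hspa1a and Hspa1b was 9.60, 8.20, 7.83 and 8.63 in replicates 1, 2, 3 and 4, with a mean of 8.57 ± 0.76 (exact permutation p = 0.125), or 379-fold. The constitutive gene was higher in 4 of 4 libraries, and replicate 1 had both the highest Hspa8 and the lowest inducible sum. Hsp90ab1 over Hsp90aa1 was a much smaller ratio, at 1.14, 1.23, 1.17 and 1.40, with a mean of 1.23 ± 0.12 (exact permutation p = 0.125), or 2.35-fold. Hspa4 over Hsph1 was 2.40, 2.61, 2.67 and 2.77, with a mean of 2.61 ± 0.16 (exact permutation p = 0.125). Dnaja2 over Dnajb1 was 2.07, 2.12, 1.89 and 2.10, with a mean of 2.05 ± 0.10 (exact permutation p = 0.125). For these last 3 pairs the highest and lowest libraries differed by 0.26, 0.37 and 0.23 on the log2 scale, against 1.77 for the Hsp70 pair.

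The mitochondrial lid and barrel did not keep a fixed order. Hspe1 over Hspd1 was -0.18 in replicate 1 against 0.51, 0.25 and 0.64 in replicates 2, 3 and 4, with a mean of 0.30 ± 0.36 on the log2 scale (exact permutation p = 0.25). The sign in replicate 1 was opposite to that in the other 3. The annotated genes overlap head to head on opposite strands of chromosome 1, Hspd1 at chr1:55077835-55088243 and Hspe1 at chr1:55088132-55091307 of mm10, and the strand setting of the counting is not named in the labels or headers. Reads at the shared start cannot be assigned with certainty.

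**Figure D2:**
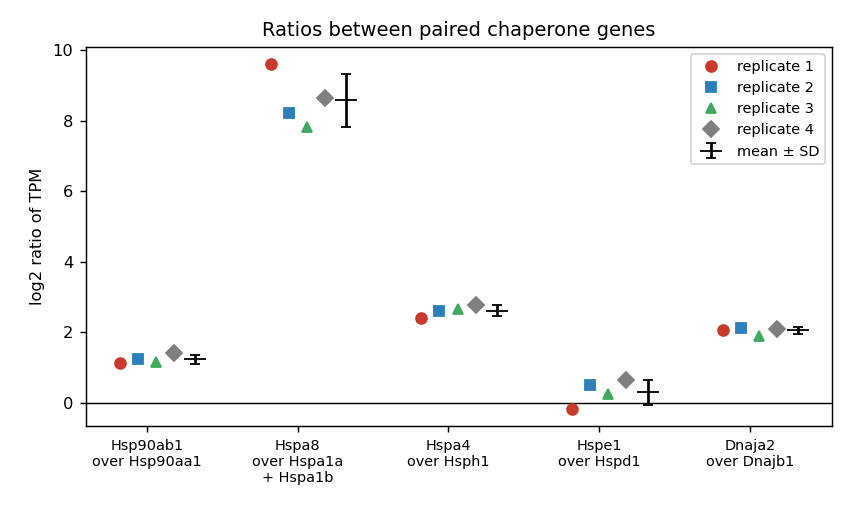
Log2 ratio of TPM between paired genes in each library, with the mean and SD of the 4 libraries in black. The Hspa8 ratio is far above the others, between 7.83 and 9.60, and the Hspe1 ratio falls on both sides of 0.

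TRiC subunits enter the ring in equal numbers, and their RNAs lay within 1.66-fold of each other in every library. Cct2 had 69.2, 32.1, 29.8 and 43.7 TPM and Cct7 had 41.8, 20.6, 21 and 28.9 TPM in replicates 1, 2, 3 and 4. These were the highest and lowest subunits in all 4 libraries. The ratio between them was 1.66, 1.55, 1.42 and 1.51, a mean of 1.54 ± 0.098, and the coefficient of variation across the 7 subunits was 15.1% ± 2.95 (SD, n = 4). Between these ends came Cct5 at 38.2 ± 14.2, Tcp1 at 36.1 ± 13.4, Cct3 at 35.2 ± 17.8, Cct4 at 33.1 ± 8.21 and Cct8 at 31.7 ± 12.1 TPM.

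Neighbours in that order were compared by the ratio inside each library, with the same 4-library permutation test. The order was itself taken from the mean TPM of these libraries. The direction of each comparison was thus set by the values tested, and the p-values are not support for the order. Cct2 exceeded Cct5 by 0.18 ± 0.12, Cct5 exceeded Tcp1 by 0.08 ± 0.09 and Cct8 exceeded Cct7 by 0.17 ± 0.04 on the log2 scale, each in 4 of 4 libraries (exact permutation p = 0.125). Tcp1 and Cct3, Cct3 and Cct4, and Cct4 and Cct8 changed order between libraries, with exact permutation p-values of 0.375, 1 and 0.375. In the gene tables the middle of the order was therefore not separable beyond the spread.

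Replicate 1 differed from the other libraries in the position of Cct2, Cct3 and Cct4. Relative to the median subunit of its library, Cct4 stood at -0.38 in replicate 1, against 0.00, 0.00 and 0.04 on the log2 scale in replicates 2, 3 and 4. Cct3 stood at 0.17 in replicate 1, against -0.08, -0.19 and -0.22. Cct2 stood at 0.34 in replicate 1, against 0.24, 0.25 and 0.23. Replicate 1 lay outside the range of the other 3 for each of these subunits. Cct6a, the zeta subunit and not among the 36, had 69.6, 32.1, 27.9 and 30.1 TPM, a level between those of Cct2 and Cct5 on average.

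The balance depended on which transcripts were counted. Counting protein-coding transcripts only, a choice made after the data were seen, the ratio of the highest to the lowest subunit was 2.09 ± 0.123, and Cct3 and Cct7 were the lowest subunits, at 24.8 ± 12.6 and 21.4 ± 8.97 TPM. In the target tables, which were estimated directly from reads, the ratio was 1.79 ± 0.0533, and Tcp1 took the highest place in 3 of 4 libraries. There Cct5 over Tcp1 turned to -0.22 ± 0.15 on the log2 scale. Tcp1 over Cct3, at 0.09 ± 0.17 in the gene tables, was 0.70 ± 0.25 in the target tables and 0.56 ± 0.18 for protein-coding transcripts, with Tcp1 higher in 4 of 4 libraries in both (exact permutation p = 0.125). Cct8 over Cct7, at 0.17 ± 0.04, was 0.46 ± 0.04 and 0.58 ± 0.14 in the same versions. Cct7 or Cct3 was the lowest subunit of each library in all of these versions.

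**Figure D3:**
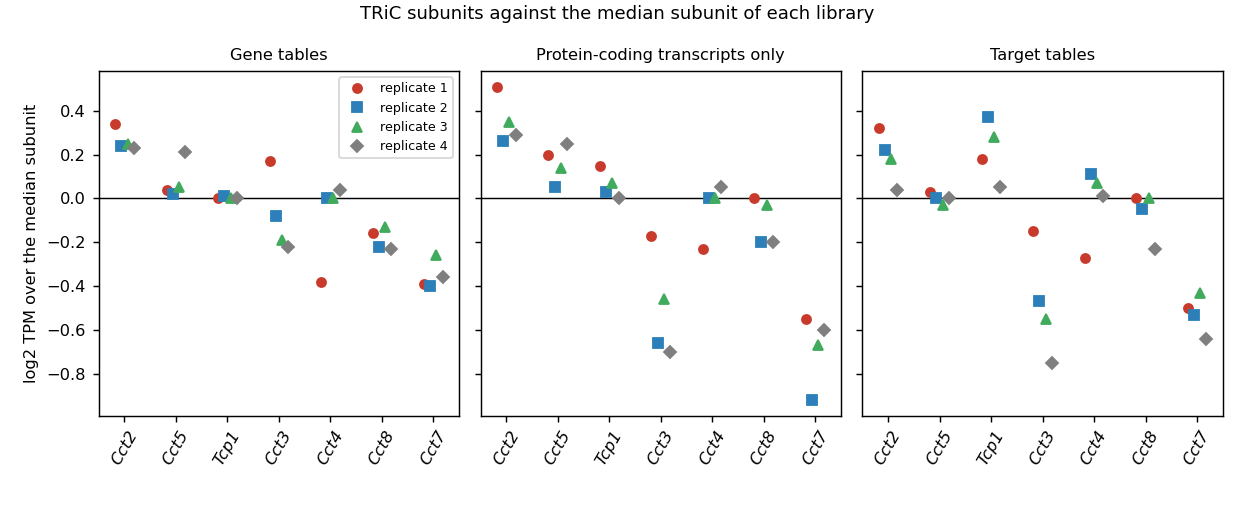
Log2 TPM of each TRiC subunit over the median subunit of its library, in the gene tables, for protein-coding transcripts only, and in the target tables, with 1 symbol per replicate. Cct2 is above the median in every panel and library, Cct7 is below it, and Cct3 moves from -0.08 on average in the gene tables to the lower end in the other panels.

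The design holds 1 group, so the other comparison it allows is between libraries. Replicate 1 had higher RNA for 20 of the 35 chaperone genes tested and lower RNA for 1, Dnajb6, with 14 not called. Across all 14041 genes tested, 14.5% were called higher and 7.58% lower in replicate 1, or 22.0% in either direction. The median log2 fold was 0.51 over the chaperone genes and 0.00 over all genes. The all-gene values were not matched to the chaperone genes for expression level. With a mean count of at least 50, more genes were called out of fewer tested. In normalized CPM, replicate 1 lay above all 3 other libraries for 29 of the 35 genes and below all of them for 3. The same count was not made over all genes tested, so it cannot be called particular to the chaperone genes. None of the 36 genes, and no other gene, was called in replicates 2, 3 or 4 by edgeR's quasi-likelihood test, where 277, 135 and 104 genes had an unadjusted p under 0.05 and DESeq2 called 8, 3 and 17. Chaperone medians there were -0.14, -0.13 and -0.28 on the log2 scale, in comparisons that all have replicate 1 among the other 3.

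How many genes were called depended on single libraries. Among all genes tested, the number was lower without replicate 3 or 4 and slightly higher without replicate 2. Among the chaperone genes it was lower in each of these fits. Without replicate 2, 3 or 4, the counts of chaperone genes called higher were 16, 13 and 15, and those called lower were 0, 0 and 2. The 13 genes Hspa9, Hsp90aa1, Hspd1, Hsph1, Stip1, Ptges3, Fkbp4, Tcp1, Cct2, Cct3, Cct5, Cct7 and Cct8 were called higher in all 8 alternatives run. Hspa8, Hspa4, Hspa14, Hsp90ab1, Ahsa1, Dnaja1 and Dnaja2 lost the call in at least 1 of the 3 fits that left out a library. Dnajb6 lost it without replicate 2 (-0.37, adjusted p = 0.0795, edgeR) and without replicate 3 (-0.41, adjusted p = 0.0672, edgeR).

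**Figure D4:**
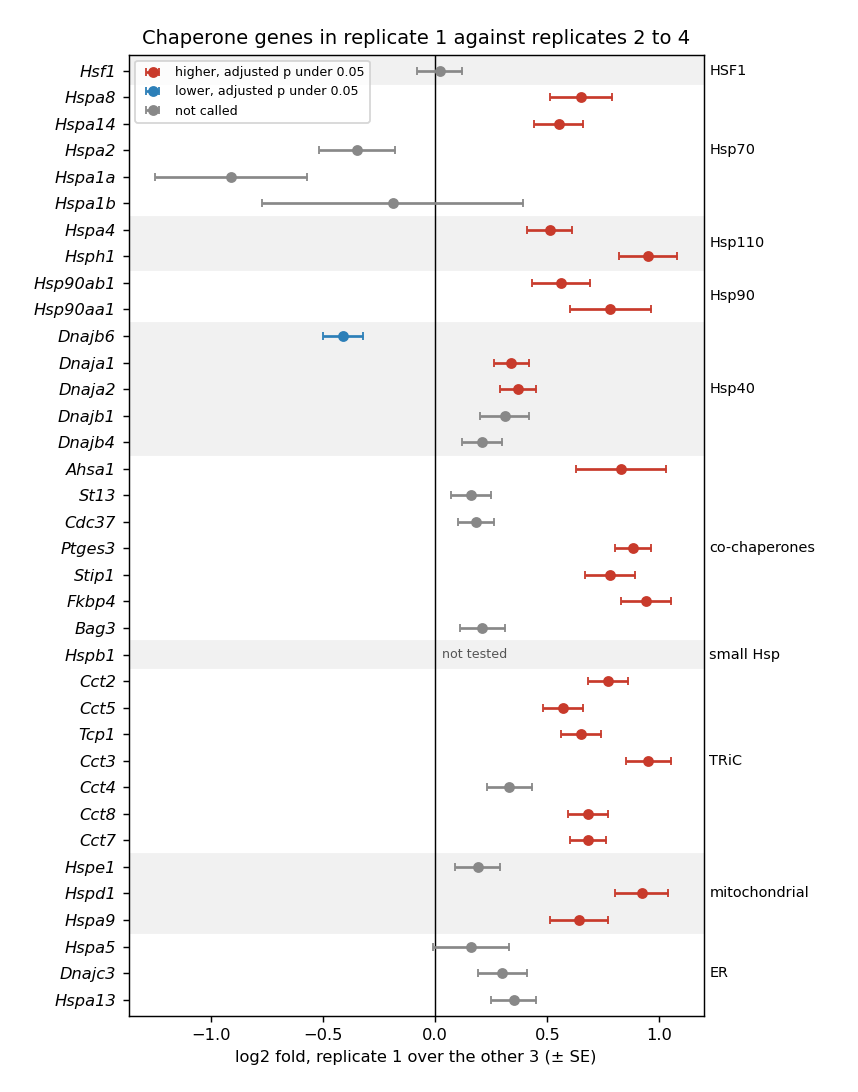
Log2 fold of replicate 1 over the other 3 libraries, with its standard error, for each tested chaperone gene, grouped by family and marked by the call of edgeR's quasi-likelihood test. Called genes run from -0.41 for Dnajb6 to 0.95 for Cct3 and Hsph1, and the ER group and Hsf1 hold no called gene.

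Of the 7 TRiC subunits, 6 were called higher in replicate 1, with a median fold of 0.68. Cct3 had 121 normalized CPM in replicate 1, against 65.3, 64.5 and 57.7 in replicates 2, 3 and 4 (log2 fold 0.95 ± 0.10 SE, adjusted p = 0.00544 by edgeR's quasi-likelihood test and the Benjamini-Hochberg adjustment). Cct2 had 176, against 109, 103 and 99.1 (0.77 ± 0.09, adjusted p = 0.007, edgeR). Replicate 1 lay above replicates 2, 3 and 4 for each of the 7 subunits, and the share of all genes that did so was not computed. Cct7, Cct8, Tcp1 and Cct5 were called with folds of 0.68, 0.68, 0.65 and 0.57. Cct4 was the subunit not called, with 130 normalized CPM against 108, 95.9 and 105 (0.33 ± 0.10, adjusted p = 0.0694, edgeR).

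Both Hsp90 genes and 4 of the 7 co-chaperones were called higher. Hsp90aa1 had 392 normalized CPM in replicate 1, against 233, 261 and 192 in the other 3 (0.78 ± 0.18, adjusted p = 0.0381, edgeR's quasi-likelihood test). Hsp90ab1 had 867, against 609, 619 and 543 (0.56 ± 0.13, adjusted p = 0.0395, edgeR). Among its co-chaperones, Ptges3 had 170, against 96.2, 91 and 90.2 (0.88 ± 0.08, adjusted p = 0.00465, edgeR). The 3 other libraries were nearly equal for Ptges3, and the gap to replicate 1 was many times their range. Fkbp4 was higher by 0.94 ± 0.11, Ahsa1 by 0.83 ± 0.20 and Stip1 by 0.78 ± 0.11 on the log2 scale. Cdc37, St13 and Bag3 were not called, with folds of 0.18, 0.16 and 0.21.

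Of the 5 Hsp70 genes outside mitochondria and the ER, 2 were called higher. Hspa8 had 2208 normalized CPM in replicate 1, against 1494, 1358 and 1356 (0.65 ± 0.14, adjusted p = 0.0293, edgeR's quasi-likelihood test). Hspa14 was higher by 0.55 ± 0.11. Hspa1a went the other way without being called, at 2.47 normalized CPM against 4.62, 5.73 and 3.58 (-0.91 ± 0.34, adjusted p = 0.125, edgeR). Without replicate 4 Hspa1a was called lower (-1.14 ± 0.28, adjusted p = 0.0468, edgeR), and its adjusted p over all alternatives ran from 0.0468 to 0.237. Hspa1b and Hspa2 had folds of -0.19 and -0.35 and were not called. Both Hsp110 genes were called, Hsph1 with 50 normalized CPM against 26.8, 27.9 and 23.2 (0.95 ± 0.13, adjusted p = 0.00954, edgeR) and Hspa4 with a fold of 0.51 ± 0.10.

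In the mitochondrial group, Hspd1 had 247 normalized CPM in replicate 1, against 135, 140 and 117 (0.92 ± 0.12, adjusted p = 0.00977, edgeR's quasi-likelihood test), and Hspa9 was higher by 0.64 ± 0.13. Hspe1, which shares its promoter region and the heat shock element shown above with Hspd1, had 56.7 against 52.0, 46.8 and 50.3 and was not called (0.19 ± 0.10, adjusted p = 0.229, edgeR). The difference between the folds of the neighbours was not tested as such, and their ratio inside each library is given above.

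Of the Hsp40 genes, Dnaja2 and Dnaja1 were called higher, by 0.37 ± 0.08 and 0.34 ± 0.08. Dnajb6 was the 1 gene called lower, with 110 normalized CPM against 152, 146 and 140 (-0.41 ± 0.09, adjusted p = 0.0371, edgeR's quasi-likelihood test). Dnajb6 carries a three-unit heat shock element, as do Hspd1 and Hsph1, which were called higher, and Hspe1, which was not called. Dnajb1 and Dnajb4 had folds of 0.31 and 0.21 and were not called. None of the 3 ER chaperones was called, Hspa5 with 777 normalized CPM against 661, 798 and 628 inside the range of the others, and Hspa13 and Dnajc3 with folds of 0.35 and 0.30. Hsf1 had a fold of 0.02.

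Read by class, 7 of the 10 constitutive genes were higher and 1 lower in replicate 1, with a median fold of 0.53, and 2 of the 7 tested inducible genes were higher, Hsp90aa1 and Hsph1, with a median of 0.21. These constitutive counts rested on single libraries. Without replicate 2, 3 or 4, the constitutive genes called higher numbered 4, 2 and 3 of 10, while the inducible genes called higher stayed at 2 of 7 in each of these fits. Whether the classes differed was not tested, nor whether either differed from all genes tested, whose share called higher is given above. Of the 16 called-higher genes with a promoter window, 6 held a two-unit heat shock element, against 8 of the 12 others with a window. Those others include Hspb1, which was not tested, and Dnajb6, which was called lower. The near-identical windows of Hspa1a and Hspa1b are both counted among them, and the shared site of Hspd1 and Hspe1 is counted on each side. Over 59 tested genes of other chaperones and co-chaperones, the median fold was 0.16, against 0.00 over all genes tested. Some of these genes were called in replicate 1, nearly all of them as higher. Among the called genes the largest fold was that of Fkbp5, an immunophilin of Hsp90 that glucocorticoids induce, at 27.0 normalized CPM in replicate 1 against a mean of 5.73 in the other 3 (2.24 ± 0.13, adjusted p = 0.00244, edgeR's quasi-likelihood test). Of the other called genes, Cct6a had the next largest fold, at 1.05 ± 0.11, followed by Aarsd1, whose product has an alanyl-tRNA synthetase domain, at 0.79 ± 0.12. Unc45a, a myosin chaperone that binds Hsp90, was lower by -0.44 ± 0.10. Trap1 was called higher, at 0.44 ± 0.08, and Hsp90b1 was not called, at 0.16 ± 0.21.

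Other gene lists differed in replicate 1 beside the chaperones. Of 20 proliferation genes, 17 were called higher and none lower, and their summed level was 1622 normalized CPM in replicate 1, against 490 to 506 in the other 3. Macrophage markers summed to 23183, against 27953 to 28566, with 1 of 8 called lower. Immediate early genes, which respond within minutes, summed to 2138 in replicate 1, inside the range of 1590 to 3641 of the others, and nuclear RNAs summed to 2094, also inside their range of 1939 to 9984. Markers of other cell types summed to 488, against 102 to 139, carried by Pf4. Replicate 1 was also the library with the fewest counts. The part of any of these in the chaperone differences was not tested. In bulk RNA, a change in the share of cells of 1 state and a change in RNA per cell cannot be told apart.

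Across the 4 libraries the standard deviation of log2 CPM had a median of 0.29 over the 35 chaperone genes and 0.25 over all genes tested. Without replicate 1 these medians were 0.08 and 0.13. The chaperone median was thus the higher one with replicate 1 and the lower one without it. The medians over all genes were not matched to the chaperone genes for expression level.

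Most of the genes were read from 1 main transcript. In 21 of 36 genes a single isoform held at least 90% of the gene's TPM, and for 34 genes both kinds of transcript table named the same leading isoform. The exceptions were Hsp90aa1 and Dnaja1. In Hsp90aa1 the gene-table series gave 41.2% to Hsp90aa1-202 and 32.6% to Hsp90aa1-201, and the target tables gave 14.3% and 59.9%. In Dnaja1 the share of Dnaja1-201 was 58.8% and that of Dnaja1-205 was 34.4%, against 37.5% and 51.6% in the target tables.

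Transcript models not annotated as protein-coding held at least 20% of TPM in 6 genes by the first tables, in 8 by the target tables and in 4 by both, Hspa4, Hsp90aa1, Cdc37 and Cct7. In the first tables the largest share was that of Cdc37-203, a retained-intron model, at 38.0%, 32.1%, 36.6% and 33.8% of Cdc37 in replicates 1, 2, 3 and 4, with 32.9% on average in the target tables, where Hspa4-202 was higher. For Cdc37-203 the 4 libraries lay close together. In Hspa4 the retained-intron model Hspa4-202 held 26.3% on average (35.9% in the target tables), and in Hsp90aa1 the retained-intron model Hsp90aa1-204 held 25.8% (18.4%). Cct7-202, a model marked for nonsense-mediated decay, held 24.6% (19.0%), and the like model of Hspa5, Hspa5-204, held 17.0% (23.9%).

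Other shares depended on the estimate. Cct3-203, a retained-intron model, held 28.8% of Cct3 in the first tables and 6.37% in the target tables. The decay-marked Cct8-209 held 0% and 28.1%, and the retained-intron Dnaja2-202 held 1.66% and 22.6%. For these 3 models the shares were not the same in both estimates. Hspa8-203, a processed transcript, held 6.76% of Hspa8 in replicate 1, against 0%, 0% and 1.17% in replicates 2, 3 and 4. In the target tables it held 21.6%, against 10.5%, 4.55% and 6.72%, so replicate 1 was the highest library in both.

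**Figure D5:**
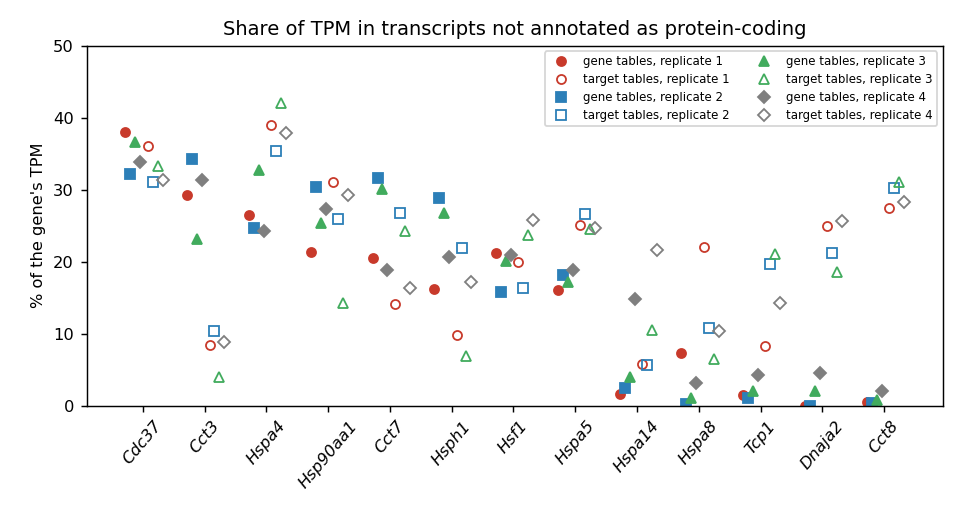
Percent of each gene's TPM in transcripts not annotated as protein-coding, for the 13 genes with at least 10% in either kind of table. Filled symbols are the first transcript tables, open symbols the target tables, 1 colour per replicate. Cdc37 is near 35.1% in the first tables and 32.9% in the target tables, while Cct3 and Cct8 differ widely between them.

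Several genes share bases with a neighbour. Tcp1 overlaps Mrpl18, Cct8 overlaps Usp16, Cct7 overlaps Pradc1, Dnaja1 overlaps Smu1, each on the opposite strand, and Hspa14 holds Gm45902 on its own strand. The small nucleolar RNA genes annotated inside Hspa8 and Hspa9 were listed at 0 counts in all 4 libraries. Counts at the opposite-strand overlaps are uncertain for the reason given for Hspd1 and Hspe1. Gm45902 and the small nucleolar RNA genes lie on the strand of their host, where a strand setting would not separate reads.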

How the data were processed

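Total RNA-seq of 4 libraries of 1 group was analysed. For each library the authors deposited gene and transcript tables with expected counts per gene, which need not be whole, and target tables with estimated counts per transcript, per the file headers. All of these tables also hold TPM as computed by the authors, with an interval per gene in the gene tables. The percent of a gene's TPM in each isoform was also deposited by the authors. The text deposited with the files names mm10 and GENCODE M21, an alignment to the transcriptome for the gene tables, and estimation directly from reads for the target tables. The aligner, the quantifier and the strand setting are named in none of these sources. Of the rows in the gene tables, 26345 name no gene. They were left out and held 0.407%, 0.224%, 0.177% and 0.0267% of counts in replicates 1 to 4.

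Gene symbols came from the target identifiers, and coordinates from M21 on mm10. Rounded expected counts of genes averaging 10 or more counts were scaled by TMM and tested with edgeR 4.0.16 under R 4.3.3, each replicate against the other 3, with Benjamini-Hochberg adjustment over all genes tested and calls at 0.05. Because 1 library gives no residual degrees of freedom, the spread comes from the other 3 and is assumed to hold for it. DESeq2 1.42.0, other filters, the target tables and leaving out a library were alternatives. Floors are 3 counts and cover counting error only, because reads with no molecular identifier can be copies of 1 molecule. Levels are TPM as mean ± SD. A fold on log2(TPM + 1) understates low genes. No pair of libraries agreed within sampling noise, with chi-square per degree of freedom from 56.0 to 212. The members, gene lists and tests were chosen with earlier results of these data known. All 36 genes are named. Of the other chaperone genes, Cct6a, Hsp90b1, Trap1 and up to 3 called genes with the largest fold each way are named, and of each marker list up to 4 of its most abundant genes. Remaining steps ran in Python 3.11.15 with numpy 2.4.6, pandas 2.3.3 and matplotlib 3.10.9.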

Additional observations from a re-analysis of the deposited data

Results flagged for a closer look

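In 8 of the 42 values examined (36 genes, 5 ratios and the TRiC balance), 1 library stood apart from the other 3 by more than Dixon's 95% critical value. Chance flags about 1 in 20 such groups. All 8 were genes, high in replicate 1 in normalized CPM, or 22.9% of the 35 tested. Of all 14041 genes tested, 13.6% met the same rule and 9.24% did so by being high in replicate 1. Hspa8, the constitutive Hsp70, had 2208 in replicate 1, against 1356 to 1494 in the other 3. The Hsp40 gene Dnaja1 had 150, against 116 to 121. Of the Hsp90 co-chaperones, Ptges3 had 170, against 90.2 to 96.2, and Fkbp4 had 62.9, against 29.9 to 35.1. The other 4 were TRiC subunits. Cct2 had 176, against 99.1 to 109, and Cct3 had 121, against 57.7 to 65.3. Cct7 had 115, against 69.5 to 73.3, and Cct8 had 157, against 93.1 to 103. The same library differed in the proliferation genes, as given above, and the part of that in these values was not tested.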

How the results depend on the processing

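In replicate 1, the count of chaperone genes called higher was 17 with DESeq2 size factors and 20 with DESeq2, without a filter, at a mean count of at least 50 and with the target counts. Leaving out 1 library gave 13 to 16 higher and 0 to 2 lower. The count called lower was 0 without a filter and 0 with the target counts. The number of all genes called in replicate 1 also differed between these settings, but not always in the direction of the chaperone count. It rose slightly without replicate 2, where the chaperone count fell. With DESeq2 size factors the median fold of all genes in replicate 1 was -0.03, against 0.00 with TMM. For all genes, DESeq2 called 8 in replicate 2, 3 in replicate 3 and 17 in replicate 4. The fit without a filter called 1 in replicate 4. Leaving out 1 library gave 0 to 82 calls in replicate 2 and 0 to 1 in replicate 4, the 82 without replicate 1. No member was called in those libraries under any alternative run. The TRiC ratio of highest to lowest subunit was 1.79 in the target tables, 1.71 in CPM and 2.09 for protein-coding transcripts only, the last chosen after the data were seen. CPM is not corrected for length, and on it Hspe1 over Hspd1 reversed to -1.57. Cct5 over Tcp1 reversed to -0.22 in the target tables and -0.29 in CPM. Cct3 over Cct4, at 0.00, turned to -0.46 in the target tables, -0.57 in CPM, -0.45 for protein-coding transcripts and, leaving out 1 library, -0.18 (without replicate 1) to 0.09 (without replicate 4), and Cct4 over Cct8 turned to -0.01 in CPM. The cause was not tested, except that CPM leaves out length by construction. In CPM, Tcp1 over Cct3 was 0.74 and Cct8 over Cct7 was 0.45, in the direction of the gene tables. The other ratios kept their direction. No paired analysis was possible because the labels give 1 group.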
